A study of Mus musculus with 72 samples.

Results

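Liver RNA of SPF WT mice collected at zeitgeber time (ZT) 10 was compared with liver RNA of SPF WT mice collected at ZT22, using the 6 libraries that carry those labels, 3 at each time, of 72 in the series. ZT counts hours from lights on, so ZT10 lies late in the light phase, when mice mostly rest and eat little, and ZT22 lies late in the dark phase, when they are active and feed. The series crossed 2 genotypes with 2 microbial states and sampled livers at 6 ZT over 24 h, to ask how the liver clock and gut microbes act on hepatic metabolism. WT mice were male C57BL/6 animals (C57BL/6J in the study's methods) with Bmal1 fl/fl alleles and no Cre, so the floxed allele was intact, and SPF (specific pathogen-free) mice kept their gut microbes. Other groups were used here only for comparison, at the same 2 times and with 3 libraries each. SPF LKO mice were male Bmal1 fl/fl animals with Albumin-Cre, in which the albumin promoter drives Cre in hepatocytes. How far other liver cells kept Bmal1 was not tested. GF WT mice were male Bmal1 fl/fl animals raised germ free (GF) in isolators. All mice were adult, lived in alternating light and dark, had food at all times and were housed singly before collection. The labels name 3 separate samples per group and give each a number without saying what the number marks, so p-values measure the spread between these samples.

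The circadian clock is a feedback loop of transcription factors. BMAL1, the product of Arntl, pairs with CLOCK or NPAS2 and switches on the period (Per) and cryptochrome (Cry) genes through E-boxes, and their proteins then repress the pair. A second loop sets the timing of Arntl, in which the receptors REV-ERB (Nr1d1, Nr1d2) repress and ROR proteins activate through RORE sites, and the factors DBP, TEF and HLF pass time on to output genes through D-boxes, where NFIL3 opposes them. In liver this clock and the daily rhythm of feeding are known to time many genes of lipid, bile acid, glucose and drug metabolism.

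The repressor genes Per3, Per2, Nr1d1, Nr1d2 and Ciart stood higher at the end of the rest phase than at the end of the active phase. So did the output factors Dbp and Tef. The activators Arntl, Npas2 and Clock, with Cry1 and Nfil3, stood higher at the end of the active phase. Of 13101 genes tested, 387 (2.95%) passed an adjusted p of 0.05 in edgeR's quasi-likelihood test adjusted by Benjamini-Hochberg over all genes. Among them 162 (1.24%) were higher at ZT10 and 225 (1.72%) were lower. The median size of the change among the 387 was 1.14 on the log2 scale (2.20-fold), with 235 genes changed by at least 1, 70 by at least 2 and 19 by at least 3 on that scale. Over all genes tested the median log2 change was -0.00036, and the libraries of ZT10 and ZT22 did not overlap for 2762 genes (21.1%). All 387 called genes were among these, so a lack of overlap in a called gene describes it and adds no support to its call. The 6 libraries held 18383805 to 20202333 counts, pairs of them correlated at 0.965 to 0.983 across genes, and the first principal component (39.8% of the variance) separated the 2 times. With the replicate number as a block the count was 724 (5.53%), and all 387 genes were among them.

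**Figure D1:**
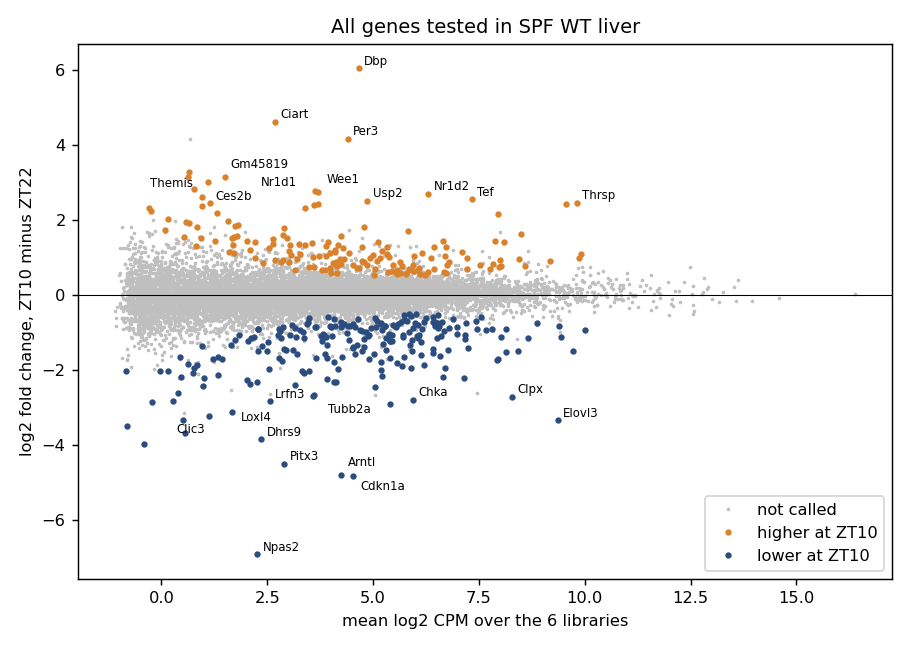
Each point is 1 of 13101 genes tested in SPF WT liver, placed by its mean log2 CPM over the 6 libraries (horizontal) and its log2 fold change, ZT10 minus ZT22 (vertical), with called genes coloured by direction and the largest changes named. Calls occur over most of the range of expression, and Npas2 (-6.93) and Dbp (6.03) mark the ends of the vertical axis.

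How strongly single libraries weigh on these counts was measured by leaving out each in turn. The calls numbered 161 without ZT10 replicate 3 and 199 without ZT22 replicate 2, against 268 to 354 without each of the others, and 136 of the 387 genes were called in all 6 of these fits. Markers checked the tissue. Summed CPM (counts per 1000000, scaled by TMM) of 9 hepatocyte markers, albumin among them, was 112605 to 151841 at ZT10 and 122629 to 131592 at ZT22. The sum of 10 markers of sinusoidal endothelial cells was 316 to 325 CPM at ZT10 and 357 to 372 CPM at ZT22, so it did not overlap, though 0 of the 10 passed edgeR's test, with 3 of them at an unadjusted p under 0.05, 0 called by DESeq2 and a median log2 change of -0.29. Erythroid markers summed to 283 to 530 CPM at ZT10 and 195 to 301 at ZT22, all 5 with positive log2 changes, 0 of 5 called by edgeR, 1 at an unadjusted p under 0.05 and 1 called by DESeq2. Sums for Kupffer cells (303 to 392 against 350 to 397 CPM), stellate cells (330 to 403 against 374 to 457), cholangiocytes (39.96 to 61.4 against 39.2 to 55.9), lymphocytes (2.99 to 6.15 against 4.03 to 5.71), neutrophils (2.30 to 5.30 against 2.58 to 3.79, Ly6g at 0) and pancreas (23.7 to 55.3 against 23.5 to 41.99, Amy2a5, Try4 and Pnlip at 0) overlapped between the times. Of 6 cholangiocyte markers tested 1 was lower at ZT10, Sox9 (log2 change -1.52 ± 0.30 SE, adjusted p = 0.0294 in edgeR's test, named after its value was seen), which DESeq2 and the replicate block also called and 2 of 6 fits without 1 library did, and the median was -0.41. Log2 changes were negative for 9 of 10 Kupffer cell, 8 of 10 stellate cell and 9 of 10 endothelial markers. Of the Kupffer and stellate markers 0 were called by edgeR or DESeq2, with 1 of each at an unadjusted p under 0.05. Hepatocyte markers had positive log2 changes in 8 of 9 (median 0.06), with 0 called by edgeR or DESeq2 and 1 at an unadjusted p under 0.05. Adipocyte markers summed to 0.589 to 6.02 CPM at ZT10 and 0.0498 to 0.288 at ZT22, Lep and Retn were at 0, and Cfd alone was tested (log2 change 4.14 ± 0.96 SE, adjusted p = 0.0541 in edgeR's test). The share of mitochondrial counts was 6.31% to 8.12% over the 6 libraries. The part of these measures in the results was not tested, and in bulk liver fewer cells of a type and less RNA per cell cannot be told apart.

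The clock list held 27 genes, all tested. Of these 10 were higher at ZT10, 5 were lower and 12 were not called (55.6% called, beside 2.95% of all genes tested). The libraries of the 2 times did not overlap for 18 of the 27, beside 21.1% of all genes tested. The median log2 change of the list was 0.34. The activators are shown first, with promoters that carry letters searched for the clock's own elements. Those letters were searched on both strands of RefSeq promoters (250 bases before to 50 after each start): the E-box CACGTG, which 7.15% of 32851 promoters hold, the D-box TTATGNAA (3.38%) and TNGGTCA (10.96%). The last is a loose RORE-like pattern whose N takes any base. Of the 10 genes higher at ZT10, 9 had promoter entries, with the E-box in 3 (Bhlhe41, Ciart, Tef), the D-box in 1 (Per3) and the RORE-like pattern in 3 (Cry2, Per3, Tef). Of the 5 genes lower at ZT10, all with entries, 1 held the E-box (Cry1), 2 the RORE-like pattern (Arntl, Nfil3) and 0 the D-box. Of the 12 genes not called, 7 had entries, and 1 of them, Per1, held both the E-box and the D-box. Called genes with entries that held none of these motifs were Clock, Npas2, Dbp, Nr1d1, Nr1d2 and Usp2. Only windows with a match are printed below, and not all of them. Those of Bhlhe41, Nfil3, Per1 and another start each of Arntl and Tef are left out. That other Arntl start has RORE-like matches 246 and 227 bases before it and 31 bases after. These counts are of genes, some with several starts, while the background shares are of promoters, so the units differ. Of 10 promoters of genes higher at ZT10, 4 held the E-box, 1 the D-box and 3 the RORE-like pattern. For 8 promoters of genes lower at ZT10 the counts were 1, 0 and 3, and for 11 of genes not called 1, 1 and 0. Promoter windows of 6 genes are printed on the strand of the gene from 5′ to 3′, each the 250 bases before a RefSeq start of GRCm38.p6, with the letters of a motif in capitals (on the other strand the RORE-like pattern reads TGACCNA).
Arntl, chr7:113207215-113207464, + strand: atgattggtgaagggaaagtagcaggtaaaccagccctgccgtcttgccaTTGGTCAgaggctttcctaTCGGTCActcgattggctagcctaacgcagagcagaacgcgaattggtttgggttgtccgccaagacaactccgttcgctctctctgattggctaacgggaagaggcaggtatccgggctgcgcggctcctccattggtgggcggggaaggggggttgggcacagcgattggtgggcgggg
Cry1, chr10:85185055-85185304, - strand: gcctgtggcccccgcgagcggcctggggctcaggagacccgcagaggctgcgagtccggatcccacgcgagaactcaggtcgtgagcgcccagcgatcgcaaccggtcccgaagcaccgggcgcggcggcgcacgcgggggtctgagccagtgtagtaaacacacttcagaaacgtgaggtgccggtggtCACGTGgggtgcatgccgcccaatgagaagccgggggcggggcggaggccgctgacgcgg
Ciart, chr3:95882229-95882478, - strand: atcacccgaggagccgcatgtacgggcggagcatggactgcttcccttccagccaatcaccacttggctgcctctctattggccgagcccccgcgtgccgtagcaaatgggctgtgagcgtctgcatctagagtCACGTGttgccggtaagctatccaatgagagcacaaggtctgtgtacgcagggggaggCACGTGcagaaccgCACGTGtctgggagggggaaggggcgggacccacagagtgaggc
Per3, chr4:151044666-151044915, - strand: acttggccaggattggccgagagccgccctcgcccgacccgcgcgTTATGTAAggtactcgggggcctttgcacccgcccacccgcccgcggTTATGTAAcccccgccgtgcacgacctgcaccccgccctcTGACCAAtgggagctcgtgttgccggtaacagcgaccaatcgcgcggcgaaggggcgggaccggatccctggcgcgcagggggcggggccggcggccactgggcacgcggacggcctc
Cry2, chr2:92434070-92434319, - strand: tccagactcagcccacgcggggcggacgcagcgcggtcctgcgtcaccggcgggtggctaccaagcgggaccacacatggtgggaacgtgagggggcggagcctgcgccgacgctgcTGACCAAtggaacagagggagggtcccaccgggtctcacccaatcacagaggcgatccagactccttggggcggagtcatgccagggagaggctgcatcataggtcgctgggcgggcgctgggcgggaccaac
Tef, chr15:81811164-81811413, + strand: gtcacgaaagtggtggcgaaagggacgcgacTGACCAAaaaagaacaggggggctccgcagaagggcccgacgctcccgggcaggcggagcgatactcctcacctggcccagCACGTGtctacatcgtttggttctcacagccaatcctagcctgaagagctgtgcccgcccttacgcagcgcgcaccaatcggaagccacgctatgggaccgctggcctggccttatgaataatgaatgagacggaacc
The Arntl window holds RORE-like matches that begin 200 and 181 bases before its start, and the Cry1 window an E-box 60 bases before. Ciart has E-boxes at 116, 58 and 44 bases, Per3 D-boxes at 205 and 158 bases and a RORE-like match at 118, Cry2 a RORE-like match at 133, and Tef an E-box at 138 and a RORE-like match at 219. In the GENCODE vM21 annotation the Arntl and Cry2 windows lie outside genes, the Per3 window is intronic in Camta1, the Tef window lies between exons of Tef itself before a later start, the Cry1 window reaches into the 5′ UTR in the first exon of Cry1, and the Ciart window does so in Ciart and is also intronic in C920021L13Rik on the other strand. A match says only that the letters are there.

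Npas2 and Arntl, which encode partners of the activating pair, had the largest drops of the list. Npas2 (chromosome 1, 39193731 to 39363236, + strand) was at 0.118, 0.0924 and 0 CPM in the 3 ZT10 libraries and at 9.94, 10.1 and 7.88 CPM in the 3 ZT22 libraries. These are 4 counts at ZT10, 0 to 2 per library, against 543 counts at ZT22, a ratio of 135 with an exact 95% counting interval of 52.3 to 496, which covers counting error only. The gene was therefore close to undetected at ZT10, and the fitted log2 change of -6.93 ± 0.42 rests on those few counts (± is the standard error of a log2 change throughout, adjusted p = 6.4e-05 in edgeR's test). Arntl (chromosome 7, 113207465 to 113314126, + strand) was at 1.82, 1.39 and 0.628 CPM at ZT10 and at 33.9, 35.03 and 39.96 CPM at ZT22. Every ZT22 library stood far above every ZT10 library, with a log2 change of -4.82 ± 0.28, 28.3-fold lower at ZT10 (adjusted p = 6.4e-05). Clock, whose protein joins BMAL1, was at 56.6, 43.7 and 35.3 CPM at ZT10 and 110.0, 142 and 118 at ZT22. It did not overlap either but moved far less, by -1.44 ± 0.19 (adjusted p = 0.00384). Arntl2, a paralog of Arntl, was at 0.647, 0.832 and 0.786 CPM and 0.786, 0.647 and 0.624 CPM with overlapping libraries (0.15 ± 0.35, adjusted p = 0.8703). Rora, which encodes an activating receptor, also overlapped, with a log2 change of -0.33 ± 0.15 (adjusted p = 0.326).

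The period genes, which encode repressors of BMAL1 and CLOCK, differed in size. Per3 (chromosome 4, 151003652 to 151044665, - strand) was at 31.7, 45.4 and 42.003 CPM at ZT10 and at 2.08, 2.49 and 2.11 CPM at ZT22. The ZT22 values lay close together and far below all ZT10 values. The gene overlaps Camta1 on the same strand, and its log2 change was 4.16 ± 0.19, 17.8-fold higher at ZT10 (adjusted p = 2.95e-05 in edgeR's test). Per2 was at 49.1, 40.1 and 38.8 CPM at ZT10 and 10.3, 16.8 and 9.51 at ZT22, again without overlap (1.81 ± 0.22, adjusted p = 0.00287). Per1 was at 36.6, 32.6 and 24.2 CPM at ZT10 and at 22.4, 26.4 and 0.864 CPM at ZT22. ZT22 replicate 3 stood apart from the other two and the groups overlapped, so the log2 change of 0.92 ± 0.74 was not called (adjusted p = 0.588). Without that library it was 0.35 (adjusted p = 0.511).

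The cryptochromes, the partners of the period proteins, went opposite ways. Cry1 (chromosome 10, 85131700 to 85185064, - strand) was at 18.1, 12.2 and 11.2 CPM at ZT10 and 51.4, 42.3 and 24.5 CPM at ZT22. The lowest ZT22 library lay above the highest ZT10 library (-1.502 ± 0.28, adjusted p = 0.0201 in edgeR's test), and the call was lost in 4 of the 6 fits that left out 1 library, with an adjusted p of up to 0.0985 without ZT10 replicate 3. Cry2 was at 33.8, 46.6 and 39.7 CPM at ZT10 and 19.9, 19.5 and 22.1 CPM at ZT22. All ZT10 libraries were above all ZT22 libraries, 1.96-fold on the fitted scale (0.97 ± 0.15, adjusted p = 0.00838).

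Among the other repressors, Nr1d2 (REV-ERB beta) was even within groups, at 133, 136 and 138 CPM at ZT10 and 19.1, 18.1 and 26.5 CPM at ZT22. Its log2 change was 2.68 ± 0.17 (adjusted p = 6.4e-05 in edgeR's test). Nr1d1 (REV-ERB alpha) was at 15.8, 27.9 and 20.2 CPM at ZT10 and 1.74, 1.99 and 5.67 CPM at ZT22, with ZT22 replicate 3 the highest of its group but still below ZT10. The log2 change was 2.76 ± 0.41 (adjusted p = 0.00761), and Nr1d1 overlaps Thra on the opposite strand, which counting without strand cannot separate. Ciart, a repressor that acts on BMAL1 and CLOCK, was at 13.01, 11.3 and 11.9 CPM at ZT10 and 0.112, 0.647 and 0.672 CPM at ZT22. That is 692 counts against 29 over the 3 libraries, and the fitted log2 change was 4.61 ± 0.37 (adjusted p = 0.000216). Bhlhe41 (DEC2), which competes for E-boxes, was at 1.65, 2.68 and 3.98 CPM and 0.225, 0.647 and 0.288 CPM, low at both times and without overlap (2.81 ± 0.47, adjusted p = 0.0138). Its call was lost without ZT10 replicate 3 (adjusted p = 0.0613). Its relative Bhlhe40 overlapped (0.37 ± 0.31, adjusted p = 0.609).

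Of the output factors that bind D-boxes Dbp and Tef were higher at ZT10, and their antagonist Nfil3 was higher at ZT22. Dbp (chromosome 7, 45705088 to 45710203, + strand) was at 26.1, 53.2 and 68.8 CPM at ZT10 and 0.7298, 0.945 and 0.576 CPM at ZT22. Its ZT10 libraries were spread widely, yet the lowest was far above ZT22, and the gene overlaps Sphk2 on the other strand. The fitted log2 change of 6.03 ± 0.41 was the largest increase of all genes named here (65.5-fold, adjusted p = 9.74e-05 in edgeR's test). Tef was at 238, 285 and 299.7 CPM at ZT10 and 51.5, 46.6 and 44.1 CPM at ZT22, with tight values at both times (2.54 ± 0.14, adjusted p = 6.4e-05). Hlf, the third member, was at 57.3, 87.1 and 76.6 CPM and 53.7, 48.4 and 37.4 CPM, without overlap but not called (0.67 ± 0.19, adjusted p = 0.102), and it was called with the replicate block (adjusted p = 0.0461). Nfil3, which represses through the same D-boxes, was at 22.2, 11.6 and 14.8 CPM at ZT10 and 63.8, 38.5 and 44.5 CPM at ZT22. It was lower at ZT10 by the fit (-1.59 ± 0.25, adjusted p = 0.01002), and not called without ZT10 replicate 3 (adjusted p = 0.0612).

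Of the enzymes that modify clock proteins, 1 was called. Usp2, a ubiquitin hydrolase that acts on clock proteins, was at 42.2, 52.7 and 52.5 CPM at ZT10 and at 10.2, 13.6 and 2.35 CPM at ZT22. ZT22 replicate 3 was the lowest, as for Per1, and the groups did not overlap (2.50 ± 0.46, adjusted p = 0.0205 in edgeR's test). The call was lost without ZT10 replicate 3 (adjusted p = 0.07005) or ZT22 replicate 1. The casein kinases Csnk1d (-0.14 ± 0.13) and Csnk1e (0.04 ± 0.24) and the ubiquitin ligase subunits Fbxl21 (0.34 ± 0.19), Btrc (-0.06 ± 0.14) and Fbxw11 (-0.05 ± 0.12) were not called, with adjusted p from 0.4103 to 0.954.

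**Figure D2:**
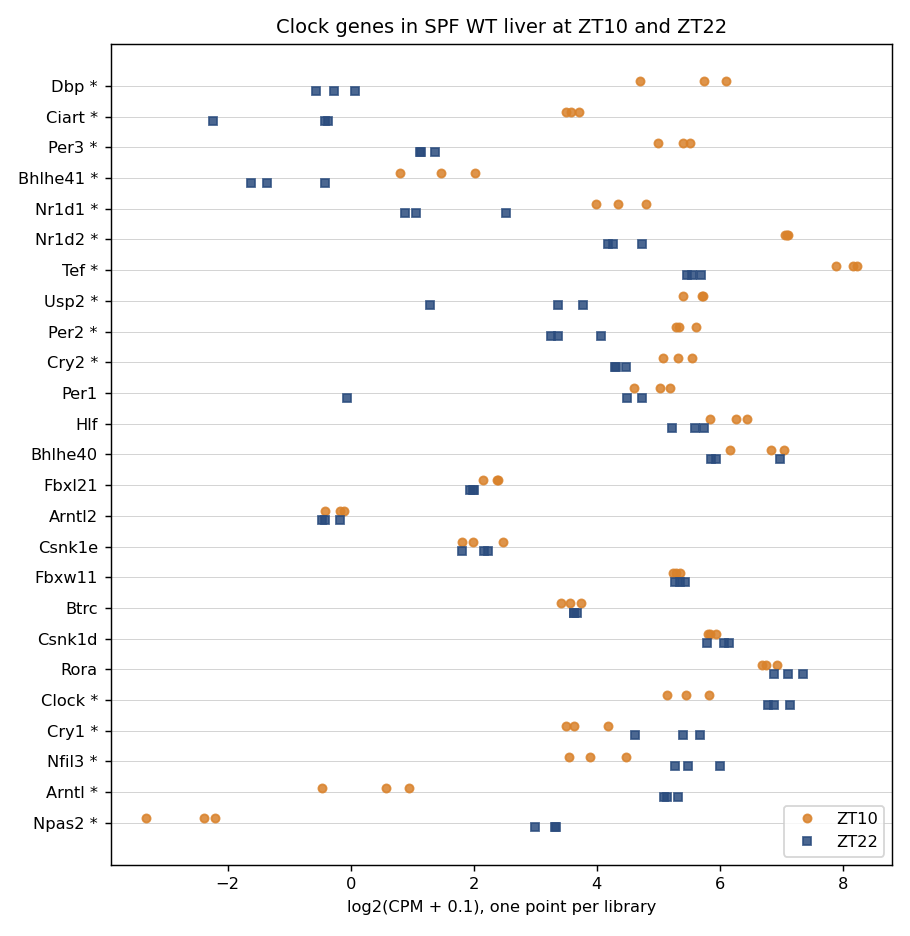
Each point is 1 library of SPF WT liver, as log2(CPM + 0.1), at ZT10 (circles) or ZT22 (squares), for 25 of the 27 clock genes ordered by their fitted change, with an asterisk on the 15 called. The top 10 genes have all circles right of all squares, the bottom 5 the reverse, and ZT22 replicate 3 is the isolated low square of Per1 (0.864 CPM).

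The other sampled times place this contrast within the day. Over the 18 SPF WT libraries at 6 ZT, 113 of the 162 genes higher at ZT10 (69.8%) had their highest mean at ZT10, 26 at ZT6 and 19 at ZT14, and 89 (54.9%) had their lowest mean at ZT22. Of the 225 genes lower at ZT10, 179 (79.6%) had their lowest mean at ZT10 and 165 (73.3%) their highest at ZT22. Over all genes tested the highest mean fell at ZT10 for 19.04% and at ZT22 for 14.9%. These shares are descriptions, since ZT10 and ZT22 chose the genes. Arntl went from a mean of 18.03 ± 8.73 CPM (SD, n = 3) at ZT2 to 2.17 ± 0.735 at ZT6 and 1.28 ± 0.605 at ZT10. Its means were then 12.6 ± 9.22 CPM at ZT14, 25.6 ± 5.25 by ZT18 and 36.3 ± 3.22 at ZT22, so the 2 times were its lowest and highest means. Not all clock genes had their extremes at these times. Nr1d1 was highest at ZT6 (62.7 ± 8.64 CPM) and lowest at ZT18 (0.853 ± 0.0794), Per2 was highest at ZT14 (55.8 ± 16.4) and Cry1 at ZT18 (50.4 ± 8.55). The library labelled SPF WT ZT14 replicate 3 stood apart, with Arntl at 2.14 CPM against 15.998 and 19.6 in the other two libraries of its group, and Dbp at 68.3 against 7.76 and 4.28. It was not in the fit of ZT10 and ZT22, and without it 109 of the 162 genes (67.3%) had their highest mean at ZT10 and 164 of the 225 (72.9%) their lowest.

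**Figure D3:**
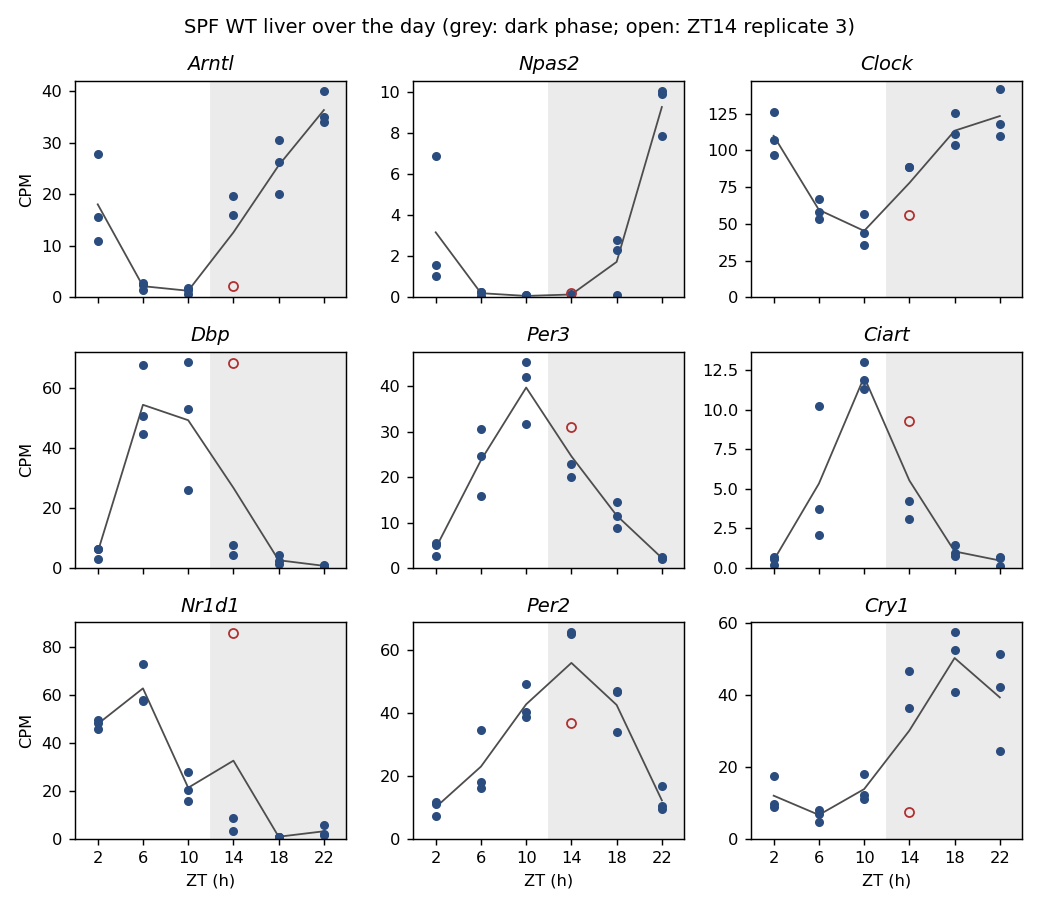
CPM of 9 clock genes (vertical) in each SPF WT library against ZT in hours (horizontal), with a line through the means of 3 libraries, grey for the dark phase and an open symbol for the library labelled ZT14 replicate 3. Arntl, Npas2 and Clock have their lowest means at ZT10 and their highest at ZT22, Per3 and Ciart peak at ZT10, and Nr1d1, Per2 and Cry1 have their highest means at ZT6, ZT14 and ZT18.

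Beyond the clock list, the largest increases among genes averaging 1 or more in log2 CPM were Gm45819, Themis, Wee1, Thrsp and Ces2b. Wee1, a kinase that holds back entry into mitosis, was at 16.3, 23.6 and 26.97 CPM at ZT10 and 2.86, 3.78 and 3.46 CPM at ZT22. The groups lay far apart (2.73 ± 0.22, adjusted p = 0.000227 in edgeR's test). Gm45819 (chromosome 7, 110119990 to 110121740, + strand), on the same strand as Wee1 and 305 bases before its annotated start, was at 3.296, 6.38 and 4.82 CPM and 0.898, 0.547 and 0.2401 CPM (3.13 ± 0.42, adjusted p = 0.00476). Both genes overlap 1600010M07Rik on the other strand, so part of their counts may belong to it. Themis, known from T cells, was at 4.47, 2.96 and 3.46 CPM at ZT10 and 0.842, 0.199 and 0.336 CPM at ZT22 (3.00 ± 0.44, adjusted p = 0.00687). The lymphocyte markers summed above reached only a few CPM and 4 of the 10 were tested, so they say little about T cells. The part of T cell content in the change of Themis was not tested. Ces2b, a carboxylesterase with near-identical relatives, was at 4.12, 3.79 and 2.78 CPM and 0.112, 1.24 and 0.576 CPM (2.43 ± 0.53, adjusted p = 0.0438), and its call was lost in 4 of 6 fits without 1 library (adjusted p up to 0.1102 without ZT10 replicate 1).

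The largest decreases outside the clock list were Cdkn1a, Pitx3, Dhrs9, Elovl3, Clic3, Loxl4, Tubb2a, Lrfn3, Chka and Clpx. Clpx, the unfoldase of a mitochondrial protease, was at 88.98, 76.4 and 77.1 CPM at ZT10 and at 629, 543 and 441 CPM at ZT22. Every ZT22 library was far above every ZT10 library (-2.73 ± 0.17, adjusted p = 6.4e-05 in edgeR's test). Chka, the first kinase of phosphatidylcholine synthesis, was at 19.7, 13.8 and 12.2 CPM and 80.6, 100 and 141 CPM (-2.81 ± 0.25, adjusted p = 0.000399). Tubb2a, a beta tubulin, was at 7.42, 11.3 and 10.5 CPM and 61.5, 66.9 and 93.2 CPM (-2.92 ± 0.22, adjusted p = 0.000168). A gap between the times was part of the rule that picked these genes. Lrfn3 (-2.85 ± 0.22), Loxl4, a lysyl oxidase (-3.12 ± 0.34), Dhrs9, a retinol dehydrogenase (-3.86 ± 0.50), and Clic3 (-3.25 ± 0.53) were also lower at ZT10, with adjusted p from 0.00019 to 0.0108, and Clic3 was not called without ZT10 replicate 3 (adjusted p = 0.0612). Cdkn1a, which encodes the cell cycle inhibitor p21, was at 3.12, 0.7395 and 0.8903 CPM at ZT10 and at 64.95, 62.3 and 5.04 CPM at ZT22. ZT22 replicate 3 lay near ZT10 replicate 1 (-4.83 ± 0.91, adjusted p = 0.0224). The call was lost in 4 of 6 fits without 1 library (adjusted p up to 0.112 without ZT10 replicate 3). Pitx3, a homeobox factor, was at 1.59, 0.0924 and 0.262 CPM and 19.5, 19.6 and 3.07 CPM (-4.51 ± 0.86, adjusted p = 0.0246, lost in 4 of 6 such fits with up to 0.116 without ZT10 replicate 3). It shares its last 10 bases with the end of Elovl3 on the other strand.

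Fatty acid synthesis held opposite changes. Of 28 genes tested 2 were higher at ZT10 and 3 lower (17.9% called, beside 2.95% of all genes tested). The median log2 change was 0.08, and 8 were called with the replicate block, beside 5.53% of all genes. Elovl3, which elongates very long fatty acids, was at 159, 74.9 and 117 CPM at ZT10 and 1655, 1195 and 752 CPM at ZT22, 10.2-fold lower at ZT10 by the fit (-3.35 ± 0.34, adjusted p = 0.00104 in edgeR's test). Thrsp, which promotes lipogenesis, was at 1435, 1118 and 2005 CPM at ZT10 and 192, 314 and 331 CPM at ZT22, and it did not overlap in the other direction (2.44 ± 0.27, adjusted p = 0.00146). Fads2, a desaturase, was higher at ZT10 by 0.88 ± 0.16, and the elongase Elovl5 and the mitochondrial acetyl-CoA carboxylase Acacb were lower, with log2 changes of -1.15 ± 0.19 and -1.35 ± 0.30 (adjusted p = 0.0179, 0.0138 and 0.0454). These 3 calls were lost in 2, 2 and 5 of the fits that left out 1 library, with adjusted p up to 0.102, 0.0664 and 0.165, and without ZT10 replicate 3 or ZT22 replicate 2 the list held 2 calls. The master regulator Srebf1 was at 142, 356 and 285 CPM at ZT10 and 69.1, 81.2 and 204 CPM at ZT22 with overlap (1.15 ± 0.43, adjusted p = 0.218, with the block 0.01601). Fasn (0.36 ± 0.48) and Acaca (0.30 ± 0.25), the main enzymes of synthesis, were not called (adjusted p = 0.772 and 0.616).

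Cholesterol genes that passed were lower at ZT10. Of 27 genes tested 0 were higher and 4 lower (14.8% called, beside 2.95% of all genes tested). The median log2 change was -0.56, with negative log2 changes in 23. With the replicate block 9 were lower, beside 5.53% of all genes called in either direction. Hmgcs1, an early enzyme of the mevalonate pathway, was at 59.9, 107 and 169 CPM at ZT10 and 399.8, 346 and 385 CPM at ZT22, without overlap (-1.74 ± 0.31, adjusted p = 0.0165 in edgeR's test). Insig2, which retains the sterol sensor in the endoplasmic reticulum, was at 199, 119.6 and 109.5 CPM and 428, 384 and 442 CPM (-1.55 ± 0.22, adjusted p = 0.00634). Pmvk, another mevalonate enzyme (-1.07 ± 0.23), and the transcription factor Srebf2 (-0.84 ± 0.18) completed the 4 (adjusted p = 0.0438 and 0.0383). Sqle, which oxidises squalene, was not called (-1.10 ± 0.34, adjusted p = 0.139) but was with the block (0.0289). Hmgcs1 was not called without ZT10 replicate 2 (adjusted p = 0.0506), Pmvk was lost in 5 of 6 and Srebf2 in 4 of 6 such fits (up to 0.103 and 0.127, without ZT22 replicate 2), and the list held 2 calls without ZT10 replicate 1, ZT10 replicate 2, ZT22 replicate 1 or ZT22 replicate 2.

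Among bile acid and sterol transport genes, 2 of 33 were higher at ZT10 and 2 were lower (12.1% called, beside 2.95% of all genes tested). The median was -0.01, with 7 calls with the block, beside 5.53% of all genes. Abcg5 and Abcg8, which form the exporter of cholesterol into bile, were both high at ZT10, at 163, 144 and 127 CPM against 51.5, 48.4 and 62.7 CPM and at 144, 168 and 134 CPM against 70.96, 47.03 and 68.1 CPM. Neither overlapped (1.42 ± 0.15 and 1.27 ± 0.17, adjusted p = 0.00131 and 0.00514 in edgeR's test), but the genes overlap each other on opposite strands. Cyp8b1, the enzyme that directs synthesis to cholic acid, was at 85.5, 164 and 92.7 CPM at ZT10 and 514, 357 and 261 CPM at ZT22 (-1.71 ± 0.30, adjusted p = 0.0165), and Abcb11, the bile salt export pump, was lower at ZT10, with a log2 change of -0.83 ± 0.17 (adjusted p = 0.0319). The rate-limiting enzyme Cyp7a1 overlapped, at 176, 121 and 147 CPM and 266, 224 and 96.9 CPM (-0.40 ± 0.31, adjusted p = 0.579), and the repressor Nr0b2 had a log2 change of -1.02 ± 0.27 (adjusted p = 0.0923, with the block 0.0384). Cyp8b1 was lost in 3 and Abcb11 in 5 of the 6 fits without 1 library (up to 0.0828 without ZT10 replicate 3 and 0.127 without ZT22 replicate 2), which left 2 calls in either case.

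In fatty acid oxidation and lipid storage, 4 of 58 genes were higher at ZT10 and 3 lower (12.1% called, beside 2.95% of all genes tested). The median was 0.10, and 14 were called with the block, beside 5.53% of all genes. Pdk4, a kinase that shuts off pyruvate dehydrogenase and spares glucose, was at 4.83, 3.37 and 1.47 CPM at ZT10 and 28.4, 13.6 and 20.2 CPM at ZT22 (-2.68 ± 0.38, adjusted p = 0.006396 in edgeR's test). All ZT22 libraries exceeded all ZT10 libraries. The omega-hydroxylase Cyp4a14, with near-identical relatives, and the lipid droplet protein Plin5 were also lower at ZT10 (-1.51 ± 0.27 and -0.86 ± 0.19, adjusted p = 0.0175 and 0.0476). Cpt1a, which admits fatty acids into mitochondria, was higher, at 470.2, 545 and 429 CPM against 337, 289 and 235 CPM (0.75 ± 0.17, adjusted p = 0.0465), as were the lipid droplet protein Cidec (1.495 ± 0.27), the pantetheinase Vnn1 (0.97 ± 0.18) and the ketone enzyme Bdh1 (0.67 ± 0.13), with adjusted p = 0.0179, 0.02197 and 0.0221. The receptor Ppara was not called (0.59 ± 0.24, adjusted p = 0.261). Pdk4 kept its call in every fit without 1 library, while Cyp4a14, Plin5, Cpt1a, Cidec, Vnn1 and Bdh1 lost theirs in 1, 4, 5, 3, 4 and 3 of 6, with adjusted p up to 0.178 (Plin5, without ZT10 replicate 3), and the list held 2 calls without ZT10 replicate 3 and 4 without ZT22 replicate 2.

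Of 63 genes of glucose and glycogen metabolism 2 were higher at ZT10 and 3 lower (7.94% called, beside 2.95% of all genes tested). The median was 0.02, and 13 were called with the block, beside 5.53% of all genes. Gys2, the liver glycogen synthase, was at 315, 335 and 370.1 CPM at ZT10 and 115, 137 and 126 CPM at ZT22, 2.71-fold higher at ZT10 and evenly so (1.44 ± 0.14, adjusted p = 0.000636 in edgeR's test). Ppp1r3c, a phosphatase subunit that targets glycogen, went the other way, at 68.03, 45.5 and 36.5 CPM and 171, 156 and 371 CPM (-2.21 ± 0.35, adjusted p = 0.00975), and so did its relative Ppp1r3b (-0.76 ± 0.16) and the insulin receptor substrate Irs2 (-1.59 ± 0.36, adjusted p = 0.0352 and 0.0486). Slc37a4, which carries glucose 6-phosphate into the endoplasmic reticulum, was higher at ZT10, at 228, 228 and 242 CPM against 137, 140.4 and 129 CPM (0.79 ± 0.12, adjusted p = 0.00795). G6pc, which acts after it, was at 496, 592 and 258 CPM and 1026, 829 and 858 CPM, without overlap, and was not called (-1.003 ± 0.27, adjusted p = 0.0935, with the block 0.0106). Slc2a2, the glucose transporter, had 0.64 ± 0.18 (adjusted p = 0.0999, with the block 0.0162). Pck1, which controls gluconeogenesis, was at 3072, 3587 and 2168 CPM at ZT10 and 3405, 2629 and 729 CPM at ZT22, with overlap and ZT22 replicate 3 far below the others (0.39 ± 0.45, adjusted p = 0.724). Gys2 and Slc37a4 kept their calls in all 6 fits without 1 library, Ppp1r3c lost its call without ZT10 replicate 3 (0.0544) and Ppp1r3b and Irs2 lost theirs in 5 of 6 (up to 0.169 and 0.164 without ZT10 replicate 3), so that 2 calls remained without that library and 3 without ZT22 replicate 2.

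Of 78 xenobiotic genes tested, 2 were higher at ZT10 and 1 lower (3.85% called, near the 2.95% of all genes tested). The median was -0.05, and 10 were called with the block, beside 5.53% of all genes. Both higher genes serve P450 enzymes in general. Alas1, the first enzyme of heme synthesis, was at 654, 411 and 569 CPM at ZT10 and 195, 120.2 and 221 CPM at ZT22, and Por, the reductase that feeds P450 electrons, was at 411, 429 and 329.9 CPM and 194, 139.8 and 114 CPM. Neither overlapped (1.61 ± 0.24 and 1.39 ± 0.20, adjusted p = 0.00795 and 0.00687 in edgeR's test). Gclc, the catalytic subunit of glutathione synthesis, was lower at ZT10 (-0.91 ± 0.17, adjusted p = 0.0224), and lost its call in 4 of 6 fits without 1 library (up to 0.0936 without ZT10 replicate 3). The P450 genes Cyp3a11 (-0.44 ± 0.18) and Cyp2b10 (-1.73 ± 0.54), which have near-identical relatives, and the receptor Nr1i3 (0.56 ± 0.16) were not called (adjusted p = 0.257, 0.142 and 0.104), but Cyp2b10 and Nr1i3 were called with the block (0.00205 and 0.0291).

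In amino acid and NAD metabolism 3 of 59 genes were higher at ZT10 and 2 lower (8.47% called, beside 2.95% of all genes tested). The median was 0.04, with 8 calls with the block, beside 5.53% of all genes. Nampt, the rate-limiting enzyme of NAD salvage, was at 214, 181 and 168 CPM at ZT10 and 88.4, 89.7 and 81.4 CPM at ZT22, and Nmrk1, which enters NAD synthesis from nicotinamide riboside, was at 58.4, 51.9 and 57.8 CPM and 17.7, 24.7 and 27.8 CPM. Both were higher at ZT10 without overlap (1.12 ± 0.14 and 1.26 ± 0.17, adjusted p = 0.00255 and 0.00514 in edgeR's test), as was asparagine synthetase Asns at low levels (1.84 ± 0.40, adjusted p = 0.0454). Ddc, a decarboxylase of aromatic amino acids, was lower at ZT10, at 52.02, 48.3 and 38.7 CPM against 125, 141 and 166 CPM (-1.63 ± 0.17, adjusted p = 0.00104), and so was Bhmt, which remethylates homocysteine (-1.14 ± 0.26, adjusted p = 0.0481). The urea cycle enzyme Cps1 (-0.12 ± 0.17) and the hormone-responsive transaminase Tat (-0.15 ± 0.32) were not called (adjusted p = 0.778 and 0.869). Asns and Bhmt lost their calls in 5 of 6 fits without 1 library (up to 0.179 and 0.185 without ZT22 replicate 2), which left 3 calls without ZT10 replicate 2, ZT10 replicate 3 or ZT22 replicate 2.

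The median log2 change of the cell cycle list was 0.27. Of its 27 genes 5 were higher at ZT10 and 0 lower (18.5% called, beside 2.95% of all genes tested). Beside Wee1 these were Ccne1, the cyclin of entry into DNA synthesis, at 2.12, 3.14 and 2.72 CPM and 0.168, 0.299 and 0.336 CPM (3.27 ± 0.37, adjusted p = 0.00158 in edgeR's test), the replication factor Mcm10 at 126, 83.3 and 154 CPM and 70.9, 45.1 and 35.6 CPM (1.27 ± 0.27, adjusted p = 0.0415), and, at low levels, the nucleotide enzymes Rrm2 (0.83 ± 0.18, adjusted p = 0.0438) and Tk1 (0.71 ± 0.14 SE, adjusted p = 0.0285, named outside the rule for named genes after its value was seen). Cdk1, which drives mitosis, was not called (1.38 ± 0.40, adjusted p = 0.113). Rrm2 was called in 0 of the 6 fits without 1 library (adjusted p from 0.0783 to 0.133) and Mcm10 in 2, and the list held 2 or 3 calls in each, with 2 without ZT10 replicate 1, ZT10 replicate 3 or ZT22 replicate 2. The list of stress hormones and early response had a median of -0.46 and negative log2 changes in 21 of 28 genes. With the block 8 were called, beside 5.53% of all genes. In edgeR's main test 0 were higher at ZT10 and 2 lower (7.14% called, beside 2.95% of all genes tested). They were Cdkn1a, described above, and the AP-1 subunit Jund (-0.81 ± 0.18, adjusted p = 0.0492), which was lost in 5 of 6 fits without 1 library (up to 0.212 without ZT22 replicate 2). The list held 0 calls without ZT10 replicate 2 or ZT22 replicate 2, and 3 lower genes without ZT22 replicate 3. It held 1 lower gene without ZT10 replicate 1, while without ZT22 replicate 1 it held 1 higher and 0 lower. Mt1, a metallothionein, was at 23.1, 13.7 and 5.18 CPM and 38.9, 12.1 and 1.78 CPM with overlap (-0.31 ± 0.81, adjusted p = 0.893), and Fkbp5, a glucocorticoid target, had 1.06 ± 0.32 (adjusted p = 0.1298, with the block 0.000795).

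Chaperones, ribosome genes and secreted proteins held 1 call among them. Of 54 chaperone and temperature-responsive genes 0 were called by edgeR, with 4 at an unadjusted p under 0.05 and 1 called by DESeq2, and the median log2 change was -0.0024. Hspa8 (-0.13 ± 0.25), Hsp90aa1 (-0.39 ± 0.41), the endoplasmic reticulum chaperone Hspa5 (-0.03 ± 0.22) and the cold-inducible Cirbp (0.18 ± 0.25) had adjusted p of 0.846, 0.707, 0.969 and 0.7797. Of 112 ribosome genes 0 were called by edgeR, with 9 at an unadjusted p under 0.05, and the median was 0.12. DESeq2 and the block each called 1 as higher at ZT10, and the fit without ZT22 replicate 3 called 1 as lower. Polr1b and Ubtf, which transcribe ribosomal RNA genes, had -0.06 ± 0.19 and 0.15 ± 0.13 (adjusted p = 0.912 and 0.5997). Secreted liver proteins had a median of 0.12, and 7 of 35 were called with the block, beside 5.53% of all genes. In edgeR's main test 1 of the 35 was lower at ZT10 (2.86% called, near the 2.95% of all genes tested). That gene was Gdf15, a stress-induced hormone, at 0.883, 1.66 and 0.838 CPM and 3.71, 3.78 and 3.46 CPM (-1.66 ± 0.31, adjusted p = 0.02103), and it was not called without ZT10 replicate 1, ZT10 replicate 3, ZT22 replicate 1 or ZT22 replicate 2 (up to 0.0929). Angptl8, a feeding-induced hormone, was at 11.1, 67.3 and 67.3 CPM and 13.9, 18.2 and 171 CPM, with ZT22 replicate 3 far above the others (-0.47 ± 0.90, adjusted p = 0.845). Hepcidin, Hamp (0.33 ± 0.32), and the acute phase gene Saa1 (0.26 ± 0.36) were not called (adjusted p = 0.669 and 0.7799).

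**Figure D4:**
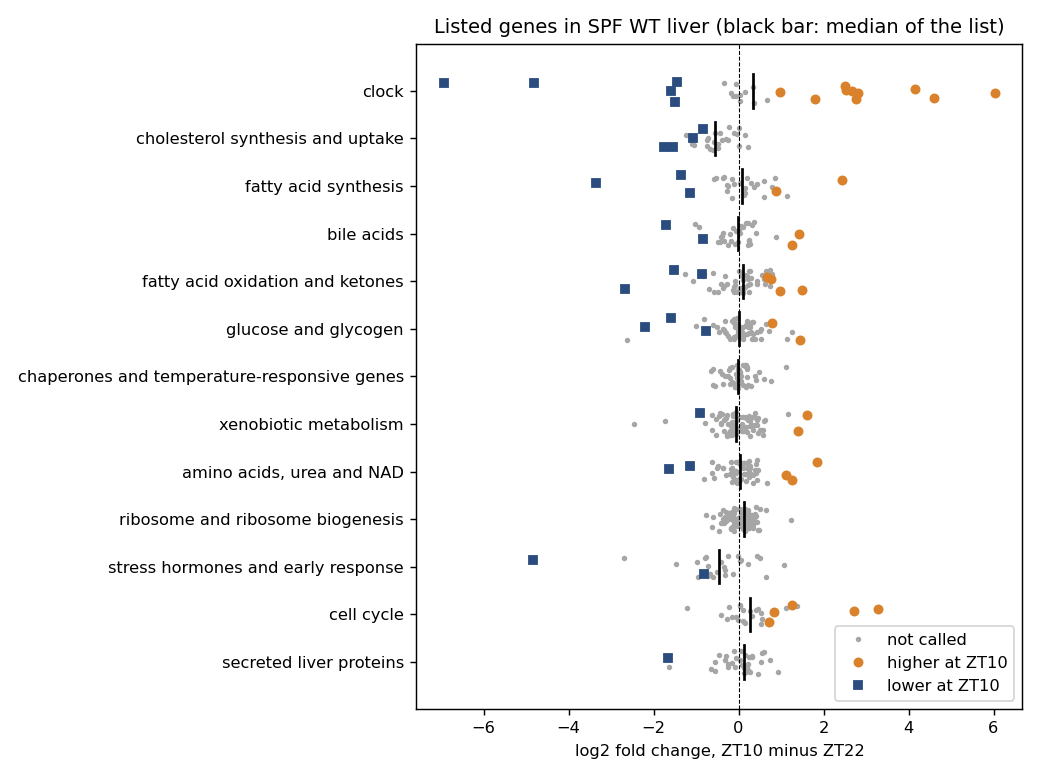
Each point is 1 gene of a list in SPF WT liver, by its log2 fold change, ZT10 minus ZT22 (horizontal), with called genes as large symbols, a black bar at the median of each list and a dashed line at the median over all genes. The clock list spreads from -6.93 to 6.03 with 15 of 27 called, the cholesterol list lies mostly left of 0 with 4 called, and the chaperone and ribosome lists hold 0 called genes.

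In SPF LKO liver, without Bmal1 in hepatocytes, 105 of 13311 genes (0.789%) passed edgeR's test between ZT10 and ZT22. DESeq2 called 583 there and 730 in SPF WT, and 2483 genes had an unadjusted p under 0.05 there against 2148 in SPF WT, so how far the counts differ depends on the test. With the replicate block 70 genes passed in SPF LKO, 54 of them among the 105. Of the 105, 28 were also among the 387 (7.24% of those and 26.7% of the 105), all 28 in the same direction. The groups share no library. Of the 387 genes, 381 were tested in SPF LKO, 303 with the same sign, and their median absolute log2 change was 1.13 in SPF WT and 0.326 in SPF LKO. The genes were chosen by passing in SPF WT, which raises the SPF WT median, so the pair is a description. The count of 105 fell to 11 without SPF LKO ZT22 replicate 2, 20 without ZT10 replicate 3 and 25 without ZT10 replicate 1 of that group, and rose to 278 without its ZT22 replicate 1. The difference of the change between the genotypes, tested as an interaction on 12 libraries, passed for 111 of 13762 genes (0.807%), and for 55 without SPF WT ZT10 replicate 3.

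Clock genes were among these. Arntl in SPF LKO had means of 9.16 ± 0.443 CPM (SD, n = 3) at ZT10 and 14.6 ± 2.24 at ZT22, a log2 change of -0.67 ± 0.14 beside -4.82 ± 0.28 in SPF WT, and the difference was -4.16 ± 0.31 (adjusted p = 1.3e-05 in edgeR's test of the interaction). The deletion removes part of the gene, and counts over the whole gene do not measure the deleted part. Npas2 was high at both times in SPF LKO, at 16.999 ± 2.41 and 29.4 ± 5.37 CPM, and its change differed by -6.16 ± 0.46 (adjusted p = 1.3e-05). Per3 was at 7.53 ± 3.00 and 5.21 ± 1.28 CPM and Tef at 126 ± 10.7 and 94.9 ± 2.11 CPM, with differences of 3.62 ± 0.38 and 2.13 ± 0.16 (adjusted p = 0.000318 and 1.3e-05). Dbp kept a change in SPF LKO (1.90 ± 0.28, adjusted p = 0.0268) that was smaller than in SPF WT (difference 4.13 ± 0.54, adjusted p = 0.001702). Nr1d2 and Nr1d1 were also higher at ZT10 in SPF LKO (1.76 ± 0.21 and 1.62 ± 0.26, adjusted p = 0.0147 and 0.03203), and for them the difference did not pass (0.92 ± 0.28 and 1.13 ± 0.55, adjusted p = 0.2002 and 0.542). Cry1, at 60.9 ± 2.43 and 76.8 ± 7.77 CPM in SPF LKO, did not pass either (-1.17 ± 0.32, adjusted p = 0.147), and Ciart and Bhlhe41 were below the filter on counts in SPF LKO alone.

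Several genes lower at ZT10 in SPF WT were high at both times in SPF LKO. Elovl3 was at 1512 ± 92.0 CPM at ZT10 and 1758 ± 145 CPM at ZT22 and Clpx at 571 ± 55.5 and 535 ± 40.6 CPM, and their changes differed from SPF WT by -3.14 ± 0.38 and -2.83 ± 0.20 (adjusted p = 0.00081 and 1.3e-05 in edgeR's test of the interaction). Gys2 and Thrsp, higher at ZT10 in SPF WT, were low at both times instead, at 117 ± 4.38 and 102 ± 11.9 CPM and at 237 ± 107 and 326 ± 23.2 CPM, with differences of 1.24 ± 0.17 and 2.90 ± 0.44 (adjusted p = 0.00195 and 0.00634). Cdkn1a was high at both times, at 71.6 ± 15.2 and 45.2 ± 14.2 CPM (-5.50 ± 0.997, adjusted p = 0.0208), and its difference was not called without SPF WT ZT10 replicate 2 or ZT10 replicate 3 (adjusted p up to 0.0743). Alas1 changed in SPF LKO as well (1.56 ± 0.21, adjusted p = 0.0206), with a difference of 0.04 ± 0.36 (adjusted p = 0.987), and so did Pdk4 (-1.85 ± 0.22, adjusted p = 0.0147), with a difference of -0.84 ± 0.48 (adjusted p = 0.644).

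In GF WT liver the contrast gave 1306 calls of 12624 genes (10.3%), and 309 of them were among the 387 (79.8% of those and 23.7% of the 1306), all 309 in the same direction. These groups share no library either. Of the 387, 383 were tested in GF WT, 378 with the same sign, and the median absolute log2 change was 1.14 in SPF WT beside 1.19 in GF WT, again for genes chosen in SPF WT. Across genes the log2 changes correlated at 0.649 between SPF WT and GF WT over 12521 genes and at 0.353 between SPF WT and SPF LKO over 12889 genes, as a description, since genes are not independent replicates. Without GF WT ZT10 replicate 2 the count of 1306 was 717, and without GF WT ZT22 replicate 2 it was 831. With the replicate block 1019 genes passed in GF WT, 952 of them among the 1306. The difference of the change between SPF WT and GF WT passed for 0 of 13415 genes (0%) in edgeR's test of the interaction, with 974 genes at an unadjusted p under 0.05 and 29 called by DESeq2. Arntl had a log2 change of -5.88 ± 0.26 in GF WT, Npas2 -6.44 ± 0.27, Dbp 6.44 ± 0.28, Per3 3.69 ± 0.29, Tef 2.43 ± 0.13 and Nr1d2 3.25 ± 0.14, each beyond its threshold there (adjusted p of at most 6.95e-05).

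**Figure D5:**
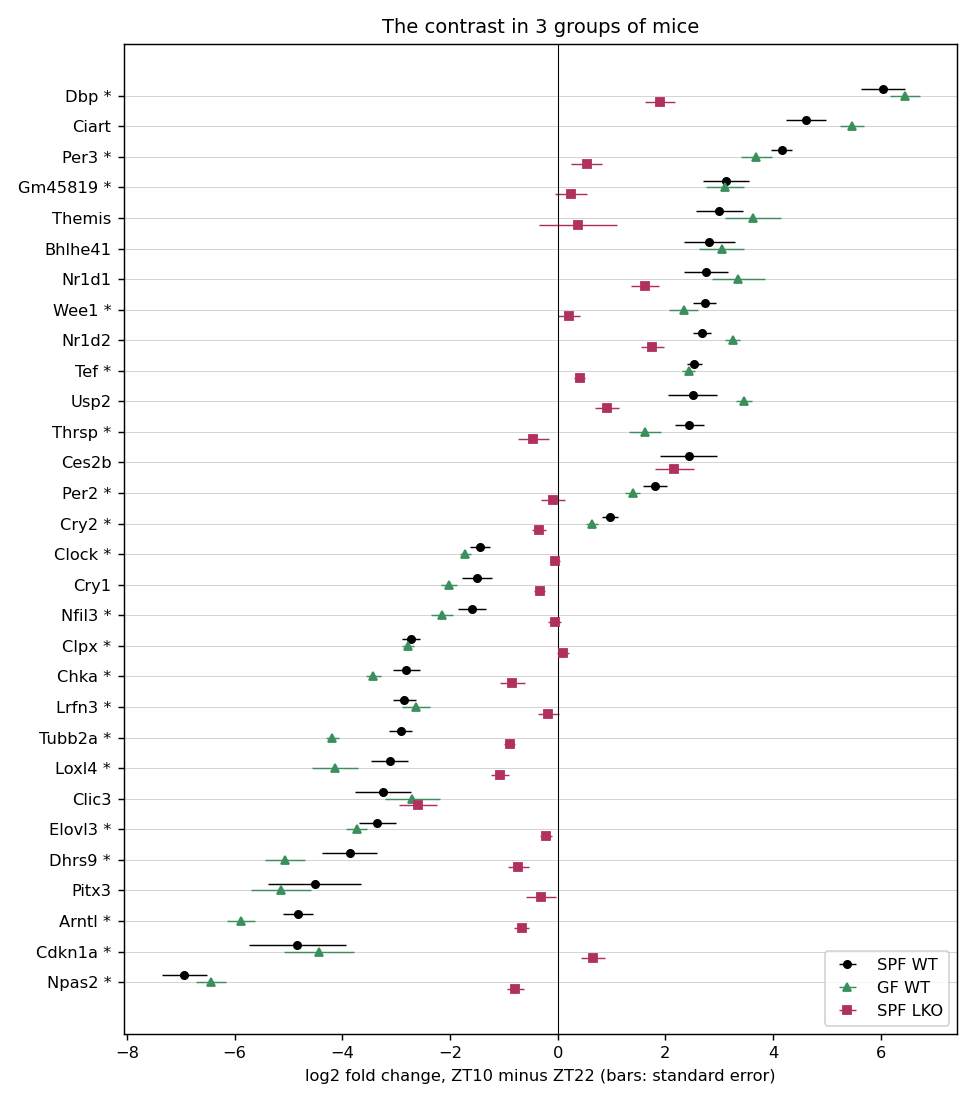
Log2 fold change, ZT10 minus ZT22 (horizontal, bars are standard errors), of 30 genes, the clock genes called in SPF WT and the largest changes, in SPF WT (circles), GF WT (triangles) and SPF LKO (squares), with an asterisk where SPF WT and SPF LKO differ by the interaction test. Circles and triangles lie on the same side of 0 for each of these genes measured in both, and squares lie nearer 0, with the smallest gaps to the circles for Clic3 and Ces2b.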

How the data were processed

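Livers were profiled by RNA-seq. The authors deposited whole-number counts of reads per gene for 55573 genes in 72 libraries, made, per the file headers and the submitters' processing notes, with STAR 2.6.1b on mm10 (GRCm38) and featureCounts 2.0.0 on exons of an Ensembl annotation. Counting used no strand and left out reads with several alignments or several genes, so overlapping genes and near-identical families are uncertain. Symbols and positions came from GENCODE vM21 (55394 of 55573 genes; 2 listed symbols were not matched), and promoters from RefSeq (GRCm38.p6). No column of per-sample values was left unused.

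The 6 libraries labelled SPF WT at ZT10 and ZT22 (18383805 to 20202333 counts) were fitted with edgeR 4.0.16 in R 4.3.3 (filterByExpr, TMM, quasi-likelihood test, Benjamini-Hochberg, adjusted p of 0.05 or less called), with log2 changes coded ZT10 minus ZT22. SPF LKO and GF WT were fitted alike, and differences of the change as interactions over 12 libraries. CPM were TMM-scaled over 36 libraries. Deviations from group means correlated at 0.103 to 0.289 between same-numbered libraries and at -0.377 to 0.281 between different numbers. These ranges overlap, so they do not settle whether samples were paired. The replicate number, whose meaning the labels do not give, was treated as pairing in an alternative with a block. Other alternatives were DESeq2 1.42.0, RLE factors, library totals, other filters, other sets of libraries, a fold threshold and leaving out each library. Scripts were tested on simulated data.

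The genes and lists were chosen with earlier results of these data known. Named were all clock genes, the 12 largest increases and 12 largest decreases among called genes that averaged 1 or more in log2 CPM without overlap between groups, and in each other list its anchor genes and up to 4 called genes per direction (110 genes, 66 called; some that were not called are not reported here). Intervals cover counting error only.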

Additional observations from a re-analysis of the deposited data

Results flagged for a closer look

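The change between ZT10 and ZT22 differed between SPF WT and SPF LKO for 26 of the 110 named genes, by edgeR's quasi-likelihood test of the interaction with Benjamini-Hochberg adjustment. Over all genes tested it differed for 111 of 13762 (0.807%). Many named genes were picked for their change in the SPF WT libraries, which also enter the interaction. That choice favours a difference, so the count of 26 is a description. Values are differences of log2 changes, SPF WT minus SPF LKO. Among clock genes they were -6.16 for Npas2, -4.16 for Arntl, -1.54 for Nfil3, -1.40 for Clock, 1.31 for Cry2, 1.89 for Per2, 2.13 for Tef, 3.62 for Per3 and 4.13 for Dbp. Among the other genes with negative values were Cdkn1a (-5.50), Elovl3 (-3.14), Dhrs9 (-3.13), Clpx (-2.83), Lrfn3 (-2.68), Gdf15 (-2.56), Loxl4 (-2.05), Tubb2a (-2.03), Chka (-1.97), Insig2 (-1.66) and Ddc (-1.39). Positive values were found for Nampt (0.77), Fads2 (0.92), Gys2 (1.24), Wee1 (2.52), Gm45819 (2.88) and Thrsp (2.90).

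Of the 26 differences, 15 were called in every one of the alternatives run for them (DESeq2, the replicate block, RLE factors, no filter, 24 libraries and each SPF WT library left out): Arntl, Clock, Clpx, Cry2, Dbp, Elovl3, Gdf15, Gys2, Lrfn3, Npas2, Per3, Tef, Thrsp, Tubb2a and Wee1. Without SPF WT ZT10 replicate 3, 10 of the 26 were lost, and with the replicate block Chka was lost.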

How the results depend on the processing

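None of the 66 named genes called in SPF WT and none of the 26 named differences from SPF LKO turned its direction under the alternatives run for them. For the 66 this says little. The libraries of ZT10 and ZT22 did not overlap for any called gene, so leaving out a library could hardly turn a direction. Direction was not counted for the other calls. Of the 66 named genes called, 33 were called in all 14 refits, 66 with DESeq2 or the replicate block, 57 with library totals (lost Acacb, Asns, Ces2b, Cpt1a, Jund, Pmvk, Ppp1r3b, Rrm2 and Srebf2), 55 with 18 SPF WT libraries (lost Acacb, Ces2b, Cpt1a, Cry1, Hmgcs1, Jund, Nr1d1, Plin5, Pmvk, Ppp1r3b and Rrm2) and 62 with 24 libraries (lost Asns, Jund, Rrm2 and Vnn1). Counts of calls moved by more than 1.5 times as follows, and the causes were not tested. DESeq2 gave 730 in SPF WT, 583 in SPF LKO, 267 for the difference from SPF LKO and 29 for that from GF WT, with 9 for cholesterol, 7 for bile acids, 16 for fatty acid oxidation, 10 for glucose, 1 for chaperones, 6 for xenobiotics, 1 for ribosomes, 4 for stress and 4 for secreted proteins. The replicate block gave 724 in SPF WT, 9 for cholesterol, 8 for fatty acid synthesis, 7 for bile acids, 14 for fatty acid oxidation, 13 for glucose, 10 for xenobiotics, 8 for amino acids, 1 for ribosomes, 8 for stress and 7 for secreted proteins, and moved no other count by more than 1.5 times. With no filter on low counts 25268 genes were tested and 1050 called in SPF WT, 527 and 238 for the differences from SPF LKO and GF WT, and in the lists 14 (cholesterol), 11 (fatty acid synthesis), 7 (bile acids), 21 (oxidation), 12 (glucose), 3 (chaperones), 13 (xenobiotics), 10 (amino acids), 4 (ribosomes), 15 (stress), 8 (cell cycle) and 7 (secreted). Library totals gave 2 for cholesterol, 1 for stress and 3 for cell cycle. The 18 SPF WT libraries gave 594, with 2 for cholesterol and 2 for secreted proteins. The 24 libraries of ZT10 and ZT22 gave 958, differences of 167 and 5, and 11 for oxidation, 10 for glucose, 6 for xenobiotics, 10 for amino acids, 3 for ribosomes and 4 for secreted proteins. A log2 change of at least 1 left 235, with 3 each for oxidation, glucose and cell cycle and 1 for stress. Leaving out 1 library gave 161 to 354 in SPF WT (161 without ZT10 replicate 3, 199 without ZT22 replicate 2), 11 to 278 in SPF LKO, 717 to 1289 in GF WT, 55 to 147 and 0 to 0 for the differences, and 2 to 6 for cholesterol, 2 to 5 for fatty acid synthesis, 2 to 4 for bile acids, 2 to 8 for oxidation, 2 to 5 for glucose, 3 to 6 for amino acids, 0 to 1 for ribosomes, 0 to 3 for stress, 2 to 3 for cell cycle and 0 to 1 for secreted proteins. For the differences only SPF WT libraries were left out in turn, not those of SPF LKO or GF WT. Depth limits low genes most, as for Npas2 at ZT10 with 4 counts.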
